A study of Rattus norvegicus with 8 samples.

Results

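The genes described here encode the digestive enzymes of the lysosome and the proteins of its membrane. The set is a list of 37 genes, and a gene was measured where an array probe carried an accession of that rat gene. Of the 37, 34 had a probe, and 32 passed the filter on dim probes and were tested among 13460 genes in all. Gla, Naglu and Ids had no matching probe. The probes of Ctsk, a bone-resorbing cathepsin, and Arsb, a sulfatase, were not well above background on any of the 8 arrays.

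The cells were NR8383, an alveolar macrophage line that was established from the lung lavage of a normal rat. Cultures were exposed for 4 h to ZnO at 16 µg/mL (ZnO 16, 4 arrays) or at 4 µg/mL (ZnO 4, 4 arrays), and the series describes the arrays of a dose as biological replicates. By their descriptions the ZnO 16 cultures had gone through 200 passages and the ZnO 4 cultures through 20 passages. Each dose was hybridised on a slide of its own and scanned separately. Effects of dose therefore cannot be told apart from those of slide, scan or passage. Untreated cells were not analysed here, and every comparison below is ZnO 16 minus ZnO 4.

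Lysosomes are acidic compartments in which hydrolases break down proteins, glycans and lipids that reach them by endocytosis, phagocytosis and autophagy. Macrophages are rich in lysosomes, and particles that they take up end in this compartment. Many lysosomal genes carry a short palindromic DNA element, the CLEAR motif, which is bound by the transcription factor TFEB and its relatives Tfe3 and Mitf. These factors are held in the cytoplasm when the kinase mTORC1 is active on the lysosomal surface.

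Levels are given as the log2 of the processed signal minus the array's 75th percentile, and a difference of 1 is therefore a doubling relative to that percentile. Levels of different probes cannot be compared. A gene was called when the adjusted p of limma's moderated test was under 0.05. The labelled cell type was checked first. Of 11 macrophage markers 9 were well above background on all 8 arrays, and Adgre1 and Marco were on none. No epithelial marker of 8 was above background on all 8 arrays, and of 6 fibroblast markers only Dcn was. Of the lymphocyte markers 4 had a probe, 3 were above background on no array, and Cd3d was above it on 3 ZnO 16 arrays and 4 ZnO 4 arrays. The lowest correlation between 2 arrays was 0.9736 within ZnO 16, 0.9816 within ZnO 4 and 0.932 between doses, across 10414 genes that are not independent replicates.

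A central area of 1536 spots was dim on the ZnO 4 slide. It was defined as the blocks that were dim on all 4 ZnO 4 arrays. The repeated spots of probes printed 10 times deviated there from the same probe's other spots by a median of 0.00, 0.03, -0.03 and -0.20 on ZnO 16 arrays 1 to 4, and by -0.56, -0.66, -0.57 and -2.65 on ZnO 4 arrays 1 to 4. That all 4 ZnO 4 arrays were low there follows from how the area was chosen. Array 4 was by far the lowest of them, and the ZnO 16 arrays were near 0 except for array 4. Among the measured lysosomal genes a spot of Glb1 and 2 spots of Ctsd lay in it, and values with this area left out are given beside theirs. Outside it, the single spots of Ctsz and Idua lay in dim blocks on the ZnO 16 slide. With dim values left out array by array their differences were 0.95 (Ctsz, adjusted p = 0.0005583) and -0.82 (Idua, adjusted p = 0.005254) by limma.

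Of the 32 measured genes, 13 rose and 6 fell at 16 µg/mL, and 13 did not pass. Over all genes tested 41.7% were called, 19.8% higher and 21.9% lower. Rises were 40.6% of the lysosomal genes measured and falls 18.8%. Among genes with a symbol, as all 32 have, 23.5% were called higher and 16.8% lower, with a median difference of 0.08. The median difference of the 32 genes was 0.21, against 0.00 for all genes and 0.05 for genes well above background on all 8 arrays, of which 41.1% were called, 21.2% higher and 20% lower. The doses did not overlap in 21 of the 32 genes, against 39.9% of all genes and 39.5% of those above background on all 8 arrays. RNA was measured in bulk, so a change in the number of cells of a kind and a change in RNA per cell cannot be told apart.

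The sign of a single difference depends on how arrays are scaled to each other. With scaling to the array median the median gene shifted to 0.17 and 14 of the lysosomal genes were called higher and 3 lower. The median gene stood at -0.75 with no scaling and at -0.69 with scaling to the spike-in controls, and in both settings 0 of the lysosomal genes were called higher by limma (0 also at an unadjusted p under 0.05) and 7 lower. Over all genes the calls were 2669 higher and 2943 lower with the 75th percentile, 3405 and 1980 with the median, 229 and 4417 with no scaling, and 255 and 4413 with the spike-ins. These settings differ only by a value subtracted per array, which shifts all genes alike. The lysosomal median relative to the median gene is therefore nearly fixed across them, and it was 0.21 in each. It was 0.00 with normexp background correction, with which 9 were called higher and 6 lower and the median gene stood at 0.15. Rises and falls below are relative to the 75th percentile. The 7 spike-in probes well above background on all arrays differed by -0.65 to 1.57 (median 1.15) on this scale, a range that holds each of the 13 rises among the 32 genes. Of the 6 falls among them, those of Lipa, Ctsd, Idua and Gusb lie outside it. The part of the spike-in shift in the results was not tested.

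**Figure D1:**
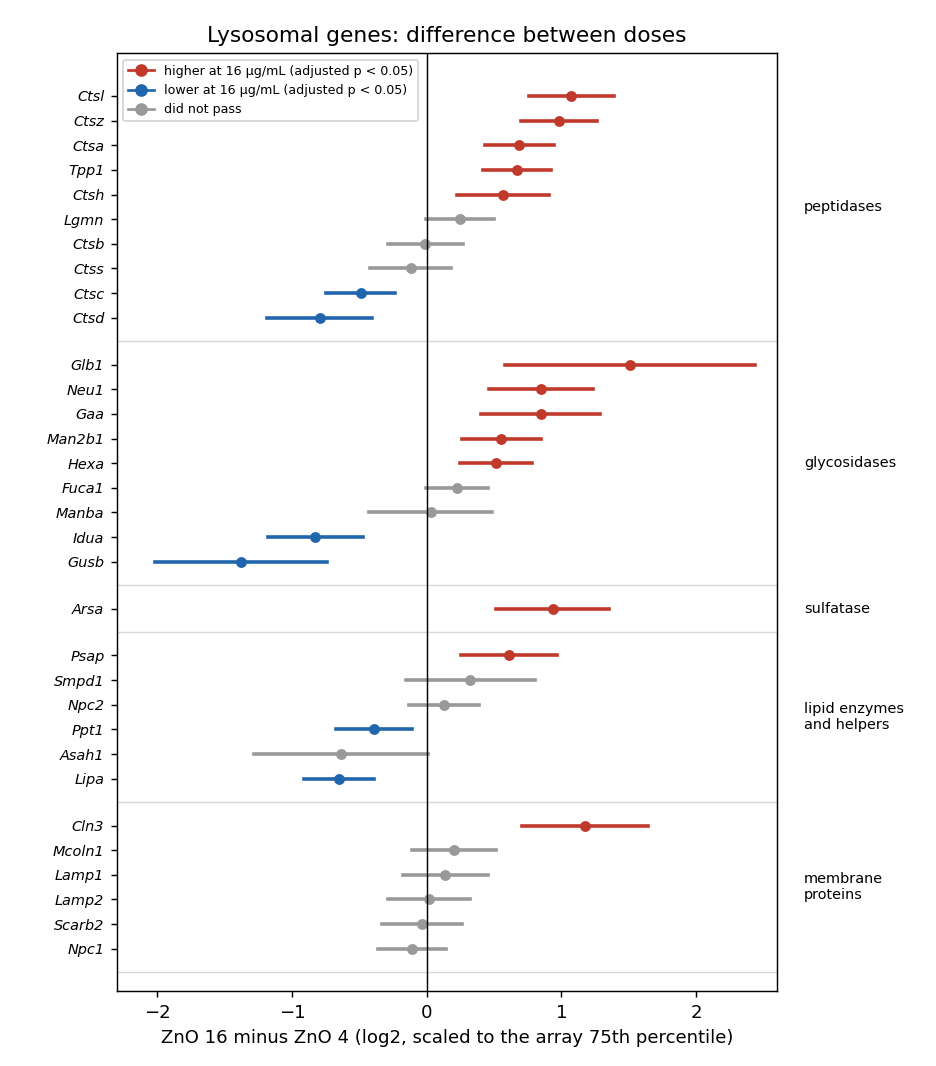
Difference in log2 level, ZnO 16 minus ZnO 4, of the 32 measured lysosomal genes (horizontal axis) by class (vertical axis), with 95% confidence intervals from limma. Peptidases have 5 rises and 2 falls among 10 genes and glycosidases 5 and 2 among 9. Over all genes tested 19.8% were called higher and 21.9% lower. Glb1 has the widest interval (0.58 to 2.43), and among the 6 membrane proteins only the interval of Cln3 stays clear of 0.

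The promoters of 4 genes are printed here because each holds the 8-letter form of the CLEAR-type motif, while the genes themselves did different things: Cln3 rose, Ctsd fell, and Lamp1 and Mcoln1 did not pass. Each window runs from 250 bases before to 50 bases after the transcription start in RefSeq (build GRCr8), 5′ to 3′ along the gene. Capitals mark TCACGTGA and, elsewhere, its 6-letter core CACGTG, an E-box. Both motifs read the same on both strands, and every 8-letter match contains a 6-letter one. Cln3 lies at chr1:190597880-190598179 on the minus strand, Ctsd at chr1:206968772-206969071 on the minus strand, Lamp1 at chr16:83075014-83075313 on the minus strand and Mcoln1 at chr12:6358008-6358307 on the plus strand.
Cln3: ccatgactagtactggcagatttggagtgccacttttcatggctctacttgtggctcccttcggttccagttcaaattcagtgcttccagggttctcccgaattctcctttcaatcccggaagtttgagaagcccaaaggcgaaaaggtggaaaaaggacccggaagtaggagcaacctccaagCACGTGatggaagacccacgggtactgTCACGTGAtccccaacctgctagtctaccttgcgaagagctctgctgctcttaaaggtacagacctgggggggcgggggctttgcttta
Ctsd: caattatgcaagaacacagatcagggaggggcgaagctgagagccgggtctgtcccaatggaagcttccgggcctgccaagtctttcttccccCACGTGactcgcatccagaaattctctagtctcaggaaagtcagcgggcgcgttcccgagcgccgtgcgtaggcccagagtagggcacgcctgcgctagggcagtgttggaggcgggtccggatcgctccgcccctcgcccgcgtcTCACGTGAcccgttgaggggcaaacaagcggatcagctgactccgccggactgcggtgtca
Lamp1: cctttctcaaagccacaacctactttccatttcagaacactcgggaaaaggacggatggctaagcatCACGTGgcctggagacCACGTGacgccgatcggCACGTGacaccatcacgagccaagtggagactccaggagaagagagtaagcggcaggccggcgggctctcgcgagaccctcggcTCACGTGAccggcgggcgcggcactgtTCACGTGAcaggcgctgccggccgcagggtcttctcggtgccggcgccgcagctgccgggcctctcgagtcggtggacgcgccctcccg
Mcoln1: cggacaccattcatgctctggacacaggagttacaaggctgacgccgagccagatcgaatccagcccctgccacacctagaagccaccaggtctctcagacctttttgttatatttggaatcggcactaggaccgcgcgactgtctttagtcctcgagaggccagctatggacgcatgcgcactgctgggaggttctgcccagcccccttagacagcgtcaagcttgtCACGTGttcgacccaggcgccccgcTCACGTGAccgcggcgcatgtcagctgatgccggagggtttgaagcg

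A promoter window was found for 30 of the 37 genes. CACGTG was in 7 of the 30 (23.3%), against 1826 of 27457 promoters (6.65%), and TCACGTGA was in 4 (13.3%), against 238 (0.867%). The E-box stood in the promoters of 3 of 10 genes that rose (Cln3, Gaa and Glb1), 2 of 5 that fell (Ctsd and Idua) and 2 of 11 that did not pass (Lamp1 and Mcoln1). Lamp1 had the most copies, 5 of the core with 2 of them in the 8-letter form, and its level did not differ detectably between doses. A match describes letters in this window and is not evidence of binding.

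**Figure D2:**
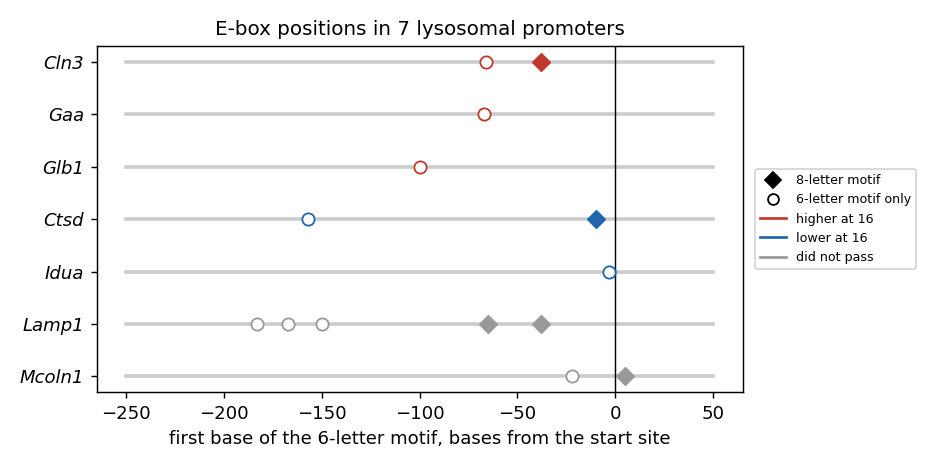
Positions of the E-box CACGTG (horizontal axis, bases from the transcription start) in the 7 lysosomal promoters that hold it (vertical axis), with copies in the 8-letter form TCACGTGA drawn separately. Copies lie between -183 (Lamp1) and 5 (Mcoln1), and genes that rose, fell or did not pass all appear.

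Lysosomal peptidases moved in both directions: of 10 measured, 5 rose, 2 fell and 3 did not pass, with a median of 0.41. Ctsl, a cysteine endopeptidase of broad specificity, had levels of 0.36, 0.28, 0.55 and 0.83 on the ZnO 16 arrays and -0.52, -0.56, -0.63 and -0.56 on the ZnO 4 arrays. It rose 2.10-fold (1.07 on the log2 scale, SE 0.14, adjusted p = 0.0002628), and the doses stayed far apart. Its probe was printed 10 times, and none of these spots lay in a dim area.

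Ctsz, a cysteine carboxypeptidase, stood at 4.86, 5.16, 4.95 and 5.12 in ZnO 16 cells and at 3.88, 4.15, 3.91 and 4.23 in ZnO 4 cells. It rose 1.97-fold (0.98, SE 0.13, adjusted p = 0.0002343) with no overlap between doses. With normexp background correction the Ctsz difference was 0.31 and did not pass (adjusted p = 0.1155). Ctsa, the serine carboxypeptidase that also protects the sialidase Neu1 and the galactosidase Glb1 in a complex, had levels of 5.33, 5.40, 5.24 and 5.22 at ZnO 16 and 4.44, 4.68, 4.55 and 4.76 at ZnO 4. Every ZnO 16 array was above every ZnO 4 array, and Ctsa rose 1.61-fold (0.69, SE 0.12, adjusted p = 0.001161).

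Tpp1 removes tripeptides from the ends of proteins and is the enzyme missing in a form of Batten disease. Its levels were 1.50, 1.60, 1.52 and 1.57 at ZnO 16 and 0.80, 0.87, 0.75 and 1.09 at ZnO 4, a rise of 1.59-fold (0.67, SE 0.12, adjusted p = 0.001314). The ZnO 16 arrays lay within a narrow band above all ZnO 4 arrays. With normexp the difference was 0.37 and missed the threshold (adjusted p = 0.05201). Ctsh, an aminopeptidase that also processes surfactant proteins in the lung, had 0.11, 0.62, 0.34 and 0.59 at ZnO 16 and -0.26, -0.27, -0.18 and 0.10 at ZnO 4. It rose 1.48-fold (0.57, SE 0.15, adjusted p = 0.01404), with the lowest ZnO 16 array just above the highest ZnO 4 array.

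The 2 peptidases that fell are an endopeptidase and an activator of other proteases. Ctsd, the main aspartic protease of the lysosome, whose promoter is printed above, had levels of 7.0, 7.31, 6.98 and 6.47 at ZnO 16 and 7.73, 7.86, 7.63 and 7.72 at ZnO 4. The ZnO 16 arrays were all lower, array 4 the lowest, and the level was 0.576 times that of ZnO 4 cells (-0.80, SE 0.18, adjusted p = 0.005421). Of its 10 spots 2 lay in the dim area, and without the dim spots the difference was -0.82 (adjusted p = 0.003705). Ctsc, the dipeptidyl peptidase that activates granule serine proteases, had 1.58, 1.55, 1.57 and 1.53 at ZnO 16 and 1.94, 1.96, 2.29 and 2.00 at ZnO 4. It was 0.711 times as high (-0.49, SE 0.11, adjusted p = 0.006819), and with scaling to the array median the call was lost (-0.32, adjusted p = 0.201).

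The 3 other peptidases did not pass. Ctsb, an abundant cysteine cathepsin, had a difference of -0.01 (95% interval -0.29 to 0.27, adjusted p = 0.9582). Ctss, the cathepsin that trims the invariant chain during antigen presentation, had one of -0.12 (-0.42 to 0.18, adjusted p = 0.506), and with normexp it was called lower (-0.73, adjusted p = 0.00348). Lgmn, the asparaginyl endopeptidase that processes cathepsins, differed by 0.25 (-0.01 to 0.50, adjusted p = 0.1074). Its doses did not overlap, although the lowest ZnO 16 array (0.9852) and the highest ZnO 4 array (0.9846) nearly met.

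**Figure D3:**
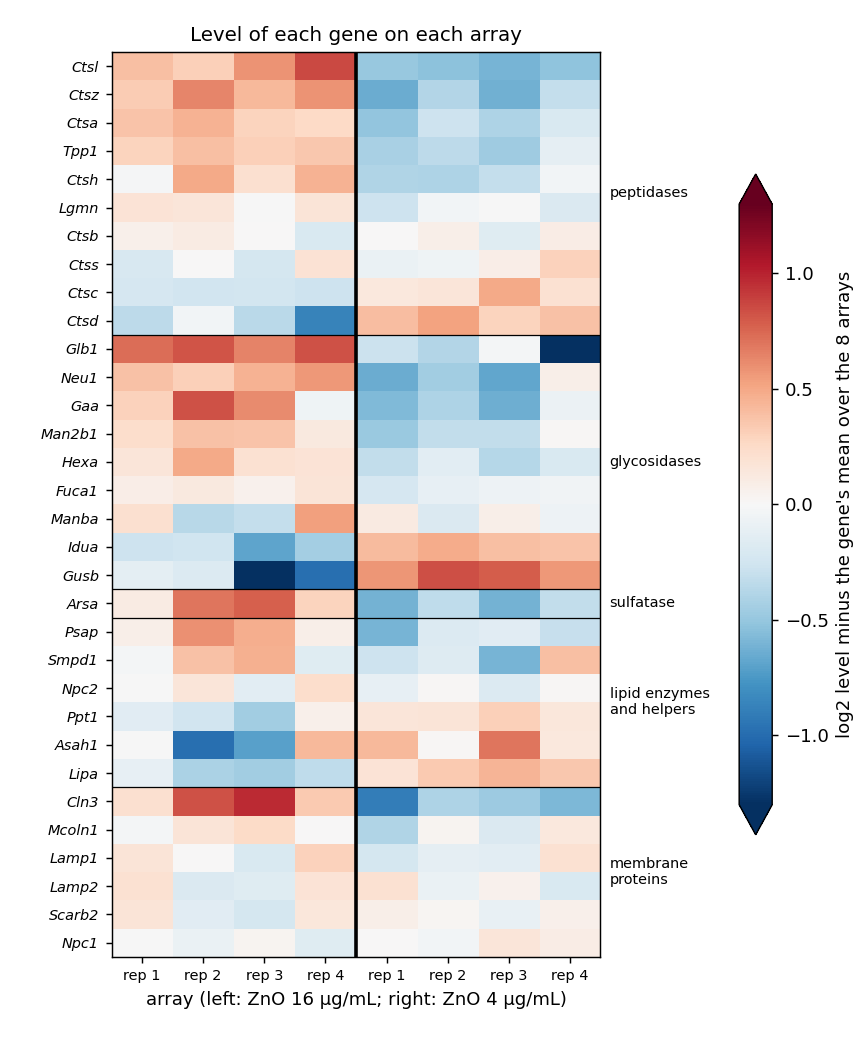
Level of each of the 32 measured lysosomal genes on each of the 8 arrays, as the log2 level minus the gene's mean over the arrays (colour scale, which stops at its ends for larger values), genes in rows by class and arrays in columns with ZnO 16 on the left. The class of peptidases is mostly higher on the left with Ctsd and Ctsc the other way, and the low value of Glb1 on ZnO 4 array 4 (-1.65 as a level) stands out.

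Glycosidases, which strip sugars from glycoproteins, glycolipids and glycogen, had 5 rises and 2 falls among 9 measured, with a median of 0.51. Neu1, the sialidase that starts the breakdown of many glycans, had levels of 0.35, 0.28, 0.41 and 0.52 at ZnO 16 and -0.68, -0.49, -0.71 and 0.04 at ZnO 4. It rose 1.80-fold (0.85, SE 0.17, adjusted p = 0.003558), and ZnO 4 array 4 came closest to the ZnO 16 arrays. Gaa, the enzyme that digests lysosomal glycogen, had 1.66, 2.19, 1.98 and 1.31 at ZnO 16 and 0.79, 0.96, 0.72 and 1.28 at ZnO 4. The doses stayed apart only narrowly, with the array numbered 4 of each dose at the edge. Gaa rose 1.80-fold (0.85, SE 0.20, adjusted p = 0.007264).

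Man2b1, the lysosomal alpha-mannosidase, had levels of 3.34, 3.49, 3.48 and 3.23 at ZnO 16 and 2.62, 2.79, 2.79 and 3.12 at ZnO 4. It rose 1.47-fold (0.56, SE 0.13, adjusted p = 0.007265) with no overlap. Hexa, the alpha subunit of the hexosaminidase that degrades GM2 ganglioside, stood at 2.01, 2.35, 2.05 and 2.03 at ZnO 16 and at 1.53, 1.72, 1.48 and 1.65 at ZnO 4. It rose 1.43-fold (0.51, SE 0.12, adjusted p = 0.007084), and the lowest ZnO 16 array was well above the highest ZnO 4 array. With normexp the Hexa difference was 0.36 and did not pass (adjusted p = 0.06012).

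Glb1, the acid beta-galactosidase whose activity is widely stained as a marker of senescent cells, had the largest fitted rise of the 32 genes and the least certain one. Its probe has 2 spots, 1 of them in the dim area. Averaged over both, its levels were 1.41, 1.50, 1.32 and 1.51 at ZnO 16 and 0.40, 0.30, 0.66 and -1.65 at ZnO 4, a difference of 1.51 (SE 0.42, adjusted p = 0.01567). Without ZnO 4 array 4 it was 0.98. The spot inside the dim area read 1.45, 1.44, 1.20 and 1.29 at ZnO 16 and -0.11, -0.51, 0.15 and -4.58 at ZnO 4. The other spot read 1.37, 1.57, 1.44 and 1.72 at ZnO 16 and 0.92, 1.12, 1.16 and 1.27 at ZnO 4. The doses were separate at both spots, but the difference was 2.61 inside the area and 0.40 outside it. Outside the area the means were 1.52 ± 0.15 at ZnO 16 and 1.12 ± 0.15 at ZnO 4 (SD, n = 4 each). The exact two-sided permutation p was 0.02857, the smallest that 70 assignments can give. Any 4 against 4 values that do not overlap give this p, so it adds nothing to the separation. The doses did not overlap in 39.9% of all genes. With dim spots left out array by array the fitted difference was 0.32 and missed the threshold (adjusted p = 0.05043). With a spot left out on all arrays once it was dim on any, it was 0.40 and passed (adjusted p = 0.02431).

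**Figure D4:**
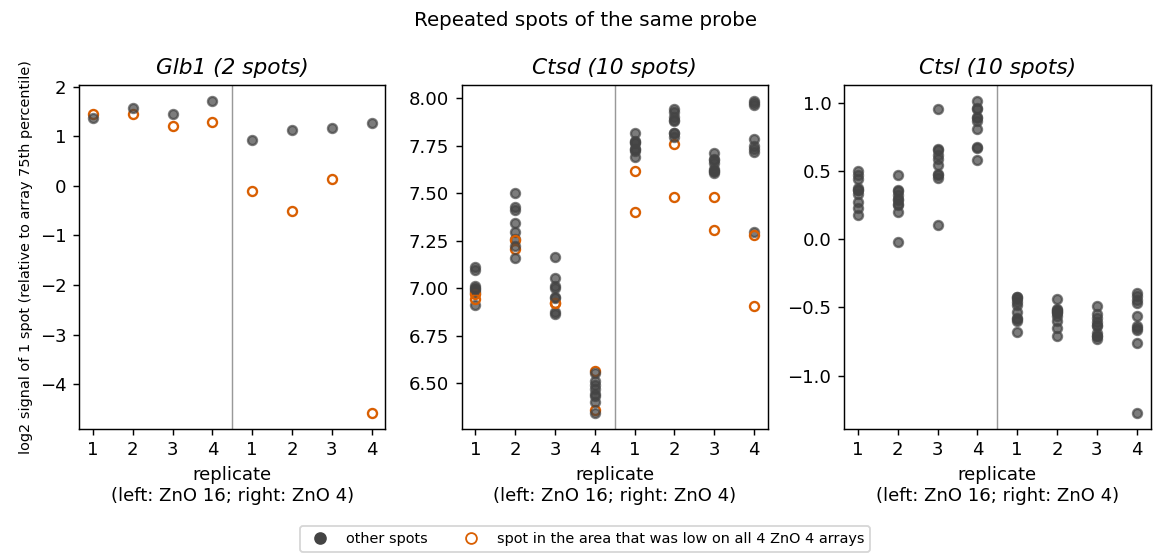
Level of each spot (vertical axis, log2 relative to the array's 75th percentile) on each array (horizontal axis, ZnO 16 left and ZnO 4 right) for probes printed more than once, with spots in a dim area marked. Every Ctsl spot is higher on the ZnO 16 arrays than on any ZnO 4 array. On the ZnO 4 arrays 2 spots of Ctsd are lower than its other spots, but their means are still higher than on the ZnO 16 arrays. The Glb1 spot in the dim area falls to -4.58 on ZnO 4 array 4 while the other reads 1.27.

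The glycosidases that fell both act on glycosaminoglycans. Gusb, beta-glucuronidase, had -1.85, -1.90, -3.20 and -2.70 at ZnO 16 and -1.14, -0.89, -0.94 and -1.16 at ZnO 4. It was the largest fall of the 32 genes (-1.38, SE 0.29, adjusted p = 0.00387), to 0.384 times the level of ZnO 4 cells, and the probe was well above background on 3 of the 4 ZnO 16 arrays. Idua, alpha-L-iduronidase, had -2.22, -2.21, -2.64 and -2.39 at ZnO 16 and -1.54, -1.47, -1.56 and -1.58 at ZnO 4. All ZnO 16 arrays were lower, and the level was 0.564 times that of ZnO 4 cells (-0.83, SE 0.16, adjusted p = 0.002596). With normexp both differences were smaller, -0.86 for Gusb and -0.38 for Idua (adjusted p = 0.0489). The 2 remaining glycosidases did not pass. Fuca1, which removes fucose, differed by 0.22 (-0.01 to 0.45, adjusted p = 0.1056) with doses that did not overlap over its 10 spots, and it was called higher with quantile normalization (0.33, adjusted p = 0.02882). Manba, beta-mannosidase, differed by 0.03 (-0.43 to 0.48, adjusted p = 0.9181).

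Of the sulfatases only Arsa was measured. This enzyme removes sulfate from the myelin lipid sulfatide and is deficient in metachromatic leukodystrophy. Arsa had levels of -1.39, -0.80, -0.71 and -1.20 at ZnO 16 and -2.11, -1.82, -2.10 and -1.81 at ZnO 4, with no overlap. It rose 1.91-fold (0.94, SE 0.19, adjusted p = 0.003241), and with normexp by 0.58 (adjusted p = 0.01864).

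Among the 6 lipid enzymes and their helper proteins 1 rose and 2 fell, with a median of -0.13. Psap, the precursor of the saposins that present sphingolipids to their hydrolases, had 4.75, 5.27, 5.14 and 4.75 at ZnO 16 and 4.07, 4.49, 4.53 and 4.37 at ZnO 4. The doses did not overlap, and Psap rose 1.53-fold (0.61, SE 0.16, adjusted p = 0.01235). With normexp the difference was 0.38 and missed the threshold (adjusted p = 0.05521).

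Lipa, the acid lipase that frees cholesterol and fatty acids from lipoproteins taken up by the cell, had 2.75, 2.44, 2.40 and 2.53 at ZnO 16 and 3.03, 3.20, 3.29 and 3.21 at ZnO 4. All ZnO 16 arrays were lower, to 0.637 times the level of ZnO 4 cells (-0.65, SE 0.12, adjusted p = 0.001821). With scaling to the array median the Lipa difference was -0.48 and did not pass (adjusted p = 0.07166), whereas with normexp it was -1.25. Ppt1, which removes palmitate from proteins, had 3.34, 3.24, 3.04 and 3.55 at ZnO 16 and 3.65, 3.65, 3.80 and 3.63 at ZnO 4. It was 0.763 times as high (-0.39, SE 0.13, adjusted p = 0.03145), the smallest called difference among the lysosomal genes. The Ppt1 call was lost when any of arrays 1 to 3 of either dose was left out (-0.41 to -0.31, adjusted p 0.0505 to 0.08621), with scaling to the array median (-0.22, adjusted p = 0.4282), with quantile normalization (-0.30, adjusted p = 0.1152) and with normexp (-0.32, adjusted p = 0.1312). The call of each of the other 18 genes was kept whichever array was left out.

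The lipid enzymes that did not pass include both enzymes of ceramide turnover on the list. Asah1, acid ceramidase, had 0.04, -0.94, -0.66 and 0.47 at ZnO 16 and 0.47, 0.06, 0.74 and 0.18 at ZnO 4. ZnO 16 arrays 1 to 3 were below every ZnO 4 array, array 1 only just, and array 4 lay among the ZnO 4 values (-0.64, 95% interval -1.28 to 0.01, adjusted p = 0.1022). Without ZnO 16 array 4 the difference was -0.88 and passed (adjusted p = 0.01867). Smpd1, acid sphingomyelinase, which makes ceramide, had 3.55, 3.95, 4.03 and 3.42 at ZnO 16 and 3.31, 3.41, 2.97 and 3.97 at ZnO 4. Its difference was 0.32 (-0.16 to 0.80, adjusted p = 0.2537), and 0.51 without ZnO 4 array 4, which was as high as the ZnO 16 arrays (adjusted p = 0.04928). Smpd1 also passed with scaling to the array median (0.49, adjusted p = 0.03473), and with no scaling its difference was -0.43. Npc2, the soluble cholesterol carrier, differed by 0.13 (-0.14 to 0.39, adjusted p = 0.4141).

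Of 6 membrane proteins measured 1 rose and 5 did not pass, with a median of 0.08. No test was made between classes. Cln3, a membrane protein that is mutated in juvenile Batten disease, had -1.51, -0.90, -0.76 and -1.39 at ZnO 16 and -2.63, -2.12, -2.20 and -2.31 at ZnO 4. Every ZnO 16 array was above every ZnO 4 array, and Cln3 rose 2.26-fold (1.17, SE 0.21, adjusted p = 0.001707). It was the only one of the 4 genes with the 8-letter motif that rose.

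For Lamp1, Scarb2, Npc1 and Mcoln1 the 95% intervals held 0. Lamp1, the abundant glycoprotein that lines the membrane, had 3.64, 3.47, 3.27 and 3.76 at ZnO 16 and 3.24, 3.35, 3.33 and 3.67 at ZnO 4. The doses overlapped (0.14, 95% interval -0.18 to 0.46, adjusted p = 0.4609). Scarb2, the receptor that carries glucocerebrosidase to the lysosome, differed by -0.03 (-0.33 to 0.26, adjusted p = 0.8544). Npc1, which moves cholesterol out of the lysosome, differed by -0.11 (-0.36 to 0.14, adjusted p = 0.4584). The calcium channel Mcoln1, also known as TRPML1, had 1.31, 1.50, 1.58 and 1.34 at ZnO 16 and 0.94, 1.37, 1.15 and 1.46 at ZnO 4. Its doses overlapped as well (0.20, -0.11 to 0.52, adjusted p = 0.2754).

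Lamp2, which is needed for autophagosomes to mature and for chaperone-mediated autophagy, was the one gene of the 32 with more than 1 probe tested, and the 2 disagreed. The brighter probe, which stands for the gene, had 2.84, 2.45, 2.49 and 2.82 at ZnO 16 and 2.84, 2.55, 2.70 and 2.45 at ZnO 4 (0.02, 95% interval -0.29 to 0.32, adjusted p = 0.9328). The dimmer probe had -0.31, -0.64, -1.03 and -0.95 at ZnO 16 and -0.06, 0.00, 0.11 and -0.15 at ZnO 4. At this probe all ZnO 16 arrays were lower (-0.71, SE 0.17, adjusted p = 0.008359 over 15572 probes). Which transcripts the probes detect was not tested.

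Other genes of the lysosomal system were taken from 6 lists with 121 genes, of which 93 were measured. Of these, 26 rose and 8 fell, with a median of 0.21. Calls were 36.6% of the 93 (28% higher and 8.6% lower), against 41.7% of all genes (19.8% higher and 21.9% lower). Among genes with a symbol, as all of the 93 have, 23.5% were higher and 16.8% lower. Other enzymes and cofactors had 5 rises and 2 falls among 20. The mannosidase Man2b2 rose by 0.98 (adjusted p = 0.0004787; 0.45 with normexp), the progranulin gene Grn by 0.81 (adjusted p = 0.0208) and Plbd2, a phospholipase B-like protein, by 0.79 (adjusted p = 0.002522). The hyaluronidase Hyal2 fell by 1.49 (adjusted p = 0.0001765) and the ribonuclease Rnaset2 fell by 0.75 (adjusted p = 0.0005801). The Grn call was lost without ZnO 16 array 3, ZnO 4 array 1 or ZnO 4 array 3 (adjusted p 0.05582 to 0.06308).

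Among 19 other membrane proteins and transporters 8 rose and 1 fell. The largest fitted rise, 3.21 for the histidine and peptide transporter Slc15a4 (adjusted p = 0.00842), came from a single spot in the dim area and could not be fitted without it. Without ZnO 4 array 4 it was 2.24, and without both arrays numbered 4 it was 2.48. The calcium-permeable channel Tpcn1 rose by 1.32 (adjusted p = 0.004495), with a probe well above background on 2 of the 4 ZnO 4 arrays, and with normexp it did not pass (0.59, adjusted p = 0.05561). The chloride transporter Clcn7 rose by 0.86 (adjusted p = 0.01941). Its call was lost without ZnO 16 array 3, ZnO 4 array 1 or ZnO 4 array 3. Cd68, a macrophage glycoprotein of late endosomes and lysosomes related to the Lamp proteins, had 3.34, 3.58, 3.29 and 2.82 at ZnO 16 and 4.87, 5.15, 4.93 and 5.04 at ZnO 4. All ZnO 16 arrays were lower by a wide margin (-1.74, adjusted p = 2.096e-05).

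Genes that deliver enzymes to the lysosome had 3 rises and 1 fall among 17. Nagpa, which uncovers the mannose 6-phosphate tag of new hydrolases, rose by 1.90 (adjusted p = 0.007165). Its only spot lay in a dim area of ZnO 4 array 4, and with dim values left out the rise was 1.40. Cln6, an endoplasmic reticulum protein that helps export new lysosomal enzymes, rose by 1.17 (adjusted p = 0.001202), also from a spot in a dim area (1.16 with dim values left out). The tethering subunit Vps11 rose by 0.63 (adjusted p = 0.005288). The adaptor subunit Ap3b1 fell by 0.52 (adjusted p = 0.04091), a call lost on leaving out any of 6 arrays, with median scaling (-0.35, adjusted p = 0.328) and with normexp (-0.23, adjusted p = 0.2896).

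In the list of the TFEB family and lysosomal mTORC1 control 5 of 20 rose and 1 fell. Tfeb itself had -0.74, 0.14, 0.13 and -0.92 at ZnO 16 and -0.85, -0.92, -1.20 and -0.80 at ZnO 4. ZnO 16 arrays 2 and 3 were high, array 1 was just above the ZnO 4 values and array 4 was among them (0.59, SE 0.25, adjusted p = 0.0815). Without ZnO 16 array 4 it passed (0.79, adjusted p = 0.02178). Tfe3 differed by -0.30 (adjusted p = 0.1638). It was called lower with normexp (-0.39, adjusted p = 0.03642) and with no scaling (-1.05, adjusted p = 0.02329). Mitf, whose single spot was dim on a ZnO 4 array, differed by 0.33 (adjusted p = 0.754), and by -0.07 with dim values left out. Flcn, the folliculin that governs mTORC1's grip on TFEB, had 4.27, 4.78, 4.85 and 4.13 at ZnO 16 and 2.98, 3.21, 3.35 and 3.13 at ZnO 4. It rose by 1.34 with no overlap (adjusted p = 0.0002545).

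The anchor subunit Lamtor1 rose by 0.91 (adjusted p = 0.0004621). Its partner Lamtor3 rose by 1.73 (adjusted p = 0.01788), from a single spot in the dim area that could not be fitted without it. Without ZnO 4 array 4 the Lamtor3 difference was 1.11. The kinase gene Mtor fell by 1.15 (adjusted p = 0.004135), with a probe well above background on 2 of the 4 ZnO 16 arrays, and with normexp its difference was 0.0062.

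In the list named cathepsin inhibitors 1 of 4 measured genes rose and 1 fell. The gene that fell, Serpinb9, is described below as an inhibitor of granzyme B and not of a cathepsin. Cst3, cystatin C, a secreted inhibitor of cysteine cathepsins, rose by 0.60 (adjusted p = 0.001341). Serpinb9, a cytosolic serpin that inhibits granzyme B, had -2.85, -3.25, -3.40 and -3.10 at ZnO 16 and -0.75, -0.66, -0.85 and -0.77 at ZnO 4. It fell by 2.39 (adjusted p = 3.575e-06), with its probe above background on 3 of the 4 ZnO 16 arrays, and by 1.19 with normexp.

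Genes of the response to lysosome damage and of its repair had 4 rises and 2 falls among 13. The rises named were Vps4a (0.54, adjusted p = 0.03082), the ATPase that recycles the membrane-mending ESCRT complexes, Tecpr1 (0.54, adjusted p = 0.005905), which is drawn to damaged lysosomes, and Pdcd6 (0.53, adjusted p = 0.002519), a calcium sensor that recruits ESCRT proteins. The Vps4a call was lost on leaving out any of 5 arrays, and with normexp neither Vps4a (0.37, adjusted p = 0.08015) nor Tecpr1 (0.24, adjusted p = 0.1534) passed. The list then had 1 rise, and with no filter on dim probes it had 2. The falls were in Lgals3 and Pdcd6ip. Lgals3, galectin-3, which binds glycans exposed on broken endosomes and lysosomes, had 6.69, 7.63, 7.16 and 6.30 at ZnO 16 and 8.26, 8.60, 8.29 and 8.17 at ZnO 4, a fall of 1.38 (adjusted p = 0.002061). Pdcd6ip, the ESCRT partner also called ALIX, had -2.18, -2.48, -2.96 and -2.36 at ZnO 16 and 0.00, 0.06, 0.50 and -1.58 at ZnO 4, a fall of 2.24 (adjusted p = 0.001367). The Pdcd6ip difference was -1.21 with the gene's probes averaged and -1.11 with normexp, and passed in both. ZnO 4 array 4 was the lowest of its dose in Lgals3 and Pdcd6ip and still above every ZnO 16 array.

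**Figure D5:**
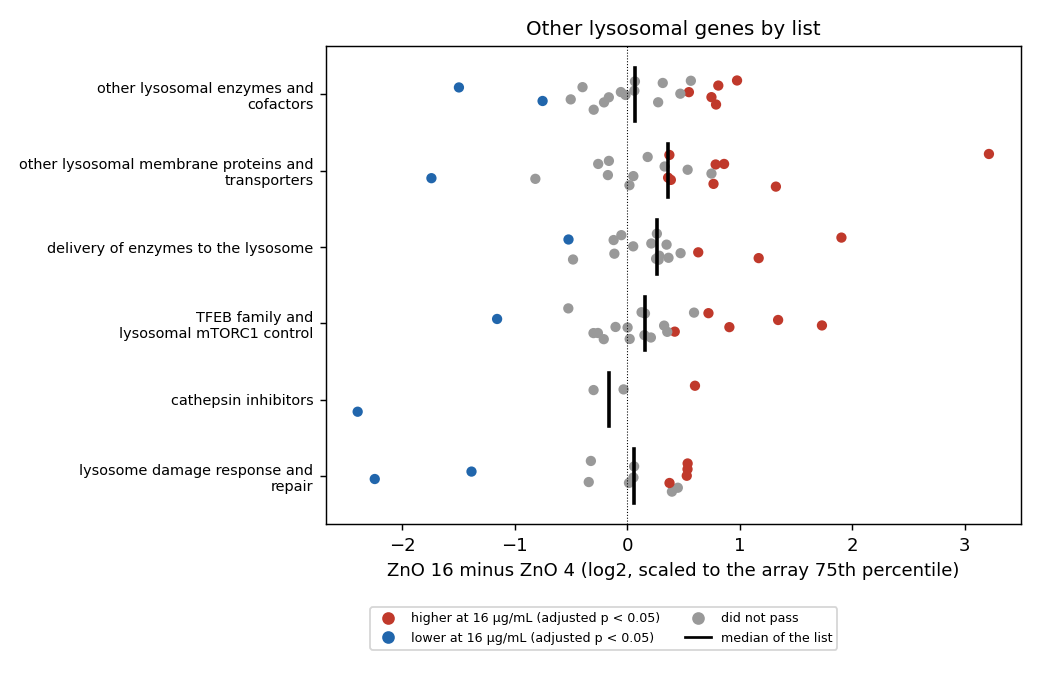
Difference in log2 level, ZnO 16 minus ZnO 4 (horizontal axis), of the 93 measured genes in the 6 other lysosomal lists (vertical axis), coloured by call, with a bar at each list's median. Medians run from -0.16 for the 4 genes listed as cathepsin inhibitors to 0.36 for the other membrane proteins and transporters. The point farthest right is Slc15a4 at 3.21, a single spot in the dim area.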

How the data were processed

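Deposited files held the scanner output of 8 Agilent 1-colour arrays (Cy3), which the submitters' processing notes credit to Feature Extraction 11.0.1.1. The processed signal is a linear intensity. Per the file headers, the authors' software subtracted background and detrended it within arrays, and did no scaling between arrays. Each array had 62976 spots and 45598 non-control probes, of which 31.49% to 39.33% were well above background, and no spot was saturated.

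From its log2 the 75th percentile of an array's non-control spots was subtracted here. Spots with non-uniformity or population outlier flags were set to missing, and the spots of a probe were averaged. Probes well above background on 3 or more of 4 arrays in either dose were kept. Unversioned accessions were matched to a GRCr8 RefSeq table, used for names and promoters only since the headers name another build; 21109 probes matched. The brightest probe stood for a gene, which gave 13460 genes, 7982 with a symbol, and 15572 probes. The test was two-sided, with lmFit and eBayes (intensity trend on) of limma 3.58.1 under R 4.3.3, and p-values were adjusted by Benjamini-Hochberg over all genes at 0.05. The code was tested on simulated data.

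Dim areas are blocks of 16 by 16 spots in which at least 8 spots of probes printed 10 times had a median under -0.25 relative to the same probe's other spots. Groups came from the sample titles. The genes and lists were chosen with earlier results of these data known. Every listed gene with a probe is named. Per-array values are given for those that passed, and for some that did not. In the other lists the 3 largest called differences in each direction are named, with Tfeb, Tfe3 and Mitf. Alternatives covered scaling, background correction, filters, dim areas, probe choice, the variance model, a replicate block and leaving out arrays. The number of arrays limits the precision. Protein sequences were not used here.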

Additional observations from a re-analysis of the deposited data

Results flagged for a closer look

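In 5 of 64 sets of 4 arrays (32 genes at 2 doses) 1 array lay far from the other 3 by Dixon's criterion at the 95% level, where chance gives about 1 in 20. Hexa on ZnO 16 array 2 was 2.3471, against 2.005 to 2.0502 on the other ZnO 16 arrays. Lgmn on ZnO 16 array 3 was 0.9852, against 1.1415 to 1.1658. Ctsc on ZnO 4 array 3 was 2.2927, against 1.9403 to 1.9986 on the other ZnO 4 arrays. Ppt1 on ZnO 4 array 3 was 3.8031, against 3.6337 to 3.6545. Glb1 on ZnO 4 array 4 was -1.6545, against 0.3026 to 0.655, and 1 of its 2 spots lay in the dim area of that array.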

How the results depend on the processing

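Scaling between arrays moved the results most. With median scaling 3 lysosomal genes were called lower. With no scaling 0 were called higher, and in the other lists 1 was higher and 15 lower; with spike-in scaling the counts were 0, 1 and 16. Among the named genes that were called, signs turned with no scaling in Ctsa (-0.0667), Psap (-0.1434), Man2b1 (-0.1988), Hexa (-0.241), Tpp1 (-0.0845), Ctsh (-0.1869), Pdcd6 (-0.224), Cst3 (-0.1511), Tecpr1 (-0.2173), Vps11 (-0.1221) and Vps4a (-0.2163). With spike-in scaling they turned in Ctsa (-0.0061), Psap (-0.0828), Man2b1 (-0.1383), Hexa (-0.1804), Tpp1 (-0.024), Ctsh (-0.1264), Pdcd6 (-0.1635), Cst3 (-0.0905), Tecpr1 (-0.1568), Vps11 (-0.0615) and Vps4a (-0.1558). Subtracting another value per array shifts all genes alike. With normexp Mtor turned to 0.0062, and the cause was not tested. With no filter on dim probes, with flagged outlier spots kept, with all probes averaged and with no intensity trend, the only call that changed among the 32 genes was that of Ppt1, lost with no filter (adjusted p = 0.08644) and with no trend (adjusted p = 0.05467). With dim spots left out on all arrays Ctsz and Idua, each with a single spot, could not be fitted. The other 30 of the 32 genes kept their calls. This alternative, and leaving out both arrays numbered 4, were chosen after seeing the data. Without both arrays numbered 4, 14 genes were higher and 7 lower, with Smpd1 (0.62) and Asah1 (-0.94) then called. Leaving out each array in turn gave 13 to 14 higher and 5 to 7 lower among the 32 genes, 18 to 28 higher and 7 to 10 lower in the other lists, and 4423 to 5576 calls over all genes. Deviations of same-numbered arrays correlated at 0.3673, 0.5828, -0.3335 and -0.1012. With 4 arrays per dose, these values do not settle whether the numbers pair the samples. With the number as a replicate block 13 genes were higher and 5 lower, and over all genes 2591 and 2881; among the 32 genes the block ended the Ppt1 call (adjusted p = 0.05616) and changed no other.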
